A study of Mus musculus with 2 samples.

Results

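The chemokine and chemokine receptor genes were taken as every gene in either count table named Ccl, Cxcl, Ccr, Cxcr or Ackr with a digit, together with Cx3cl1 and Cx3cr1. The rule gave 53 of the 25814 listed genes, namely 32 ligands, 17 receptors, 3 atypical receptors (Ackr2, Ackr3 and Ackr4) and the pseudogene Ccl19-ps1. The annotation types Cxcl11, counted here with the ligands, as a polymorphic pseudogene, a gene that is intact in some mouse strains only. The brain table listed 47 of them among 23906 genes and the lung table listed 53 among 23156 genes. The rule uses gene names and no measured level, although it was set with earlier results of these data known.

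The samples were 1 single-cell RNA library of brain and 1 of lung, from cells sorted for green fluorescent protein (GFP) from adult Nestin-GFP mice about 6 weeks old, in which regulatory sequence of the intermediate filament gene Nestin drives GFP. Both libraries carried the same transgene and no treatment, and they differed by tissue. The labels gave the strain as C57BL/6. The study's methods described CD1 or CD1 and C3H stock as the background of its wild-type mice only, and stated that transgenic mice were bred with wild-type mice. The study describes each library as a single biological replicate, and the number of mice pooled in it was not given in the sources used here. With 1 library per tissue there was no replicate and no test was possible, so the 95% intervals below are exact and cover counting error only.

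Chemokines are small secreted proteins that bind heparan sulfate on cell surfaces and guide migrating cells. They act through G protein-coupled receptors, whereas atypical receptors bind chemokines without the usual G protein signal and remove them. CXCL12 with its receptors CXCR4 and ACKR3 positions progenitors, blood cells and vessels. CX3CL1 on neurons and endothelium binds CX3CR1 on microglia, and CCL21 and CCL25 draw T cell precursors and T cells into lymphoid organs.

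The promoters of Cxcl12, Cxcr4 and Ackr3 are printed because the main comparisons turn on this ligand and its receptors. Each runs from 250 bases before to 50 bases after the gene's start, in the direction of transcription, in RefSeq for GRCm38.p6, and capitals mark TATAAA searched on both strands. The windows were chr6:117168285-117168584 on the plus strand for Cxcl12, chr1:128592250-128592549 on the minus strand for Cxcr4 and chr1:90203730-90204029 on the plus strand for Ackr3.
Cxcl12: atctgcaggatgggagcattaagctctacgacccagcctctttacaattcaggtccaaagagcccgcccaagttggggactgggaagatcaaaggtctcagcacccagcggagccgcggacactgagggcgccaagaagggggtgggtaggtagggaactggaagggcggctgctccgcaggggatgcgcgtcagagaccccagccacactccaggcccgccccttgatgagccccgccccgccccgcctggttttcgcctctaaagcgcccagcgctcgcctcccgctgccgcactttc
Cxcr4: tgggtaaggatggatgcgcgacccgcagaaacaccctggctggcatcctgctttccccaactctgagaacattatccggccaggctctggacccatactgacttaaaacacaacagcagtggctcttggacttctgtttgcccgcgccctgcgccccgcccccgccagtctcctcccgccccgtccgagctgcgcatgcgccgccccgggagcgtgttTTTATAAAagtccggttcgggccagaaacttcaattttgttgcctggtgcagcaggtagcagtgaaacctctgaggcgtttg
Ackr3: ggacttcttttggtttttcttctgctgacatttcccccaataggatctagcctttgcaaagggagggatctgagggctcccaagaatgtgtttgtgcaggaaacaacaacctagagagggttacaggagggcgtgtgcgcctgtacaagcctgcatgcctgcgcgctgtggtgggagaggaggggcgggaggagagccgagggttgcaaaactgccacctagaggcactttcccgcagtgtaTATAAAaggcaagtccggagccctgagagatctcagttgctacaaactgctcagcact
No match lay in the Cxcl12 window, which was 64.7% G and C. Cxcr4 held 2 overlapping matches, 1 on each strand, the farther starting 32 bases before the start, and Ackr3 held 1 match 8 bases before it. RefSeq promoters matched 38 of the 53 genes, and 11 of the 38 held the motif, against 13.62% of 32851 promoters of this length.

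The genes form clusters in the genome (GRCm38). Ccl2, Ccl7, Ccl11, Ccl12 and Ccl8 lay within chr11:82035571-82116799, and Ccl5, Ccl9, Ccl6, Ccl3 and Ccl4 within chr11:83525778-83664683. Cxcl9, Cxcl10 and Cxcl11 lay side by side in chr5:92321347-92365485, and Ccr9, Cxcr6, Ccr1, Ccr3 and Ccr2 in chr9:123678439-124113557. Cxcl12 (chr6:117168535-117181367), Cxcl14 (chr13:56288643-56296551), Cxcr4 (chr1:128588199-128592293), Ackr3 (chr1:90203980-90216751) and Cx3cr1 (chr9:119901616-120069879) lay outside these groups.

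After filtering, 4151 brain cells with 19518081 unique molecular identifiers (UMIs, counts of single captured RNA molecules) and 5608 lung cells with 31797069 UMIs were kept, with medians of 4209 and 5585 UMIs per cell. The libraries shared 15 cell barcodes, of which 11 were kept in both. Each cell was given to the class with the most of 8 listed markers, if at least 3 markers had a UMI and the lead was at least 2 markers. The brain classes were 823 cells like quiescent neural stem cells or astrocytes (qNSC/astrocyte-like), 64 like activated neural stem cells (aNSC-like), 1919 neuroblast-like (NB-like), 138 like oligodendrocyte progenitors (OPC-like), 92 like mature oligodendrocytes (mOL-like), 159 mural-like, 70 ependymal-like, 61 fibroblast-like, 38 microglia-like and 308 endothelial-like cells, with 479 ungated. The lung classes were 2559 pericyte-like, 587 endothelial-like, 363 myofibroblast-like, 293 matrix fibroblast-like, 130 smooth muscle-like, 96 T cell-like, 32 neural-like and 15 macrophage-like cells, with 1533 ungated. The 10 genes with the largest fold in each class included markers of that class and 0 listed for another class of the same library. This was built in, because the cells were gated on the same lists, and is no check of the classes. Among the 10 were also the keratin Krt17 in smooth muscle-like cells and the red-cell genes Hbb-bs, Hba-a1 and Hbb-bt in brain endothelial-like cells. The gates were least sharp for myofibroblast-like cells, of which 230 of 363 sat at the edge of the gate, and for matrix fibroblast-like (173 of 293) and smooth muscle-like cells (77 of 130). Levels of the sorted gene differed between classes: Nes stood at 493 CPM (UMIs of a gene per 1e6 UMIs of the class) in pericyte-like, 355 in brain endothelial-like and 181 in lung endothelial-like cells, but at 14.1 in matrix fibroblast-like and 7.63 in T cell-like cells. All levels below are CPM of the UMIs summed over a class, and since the libraries count the 3′ ends of transcripts they were not divided by gene length.

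At least 10 UMIs were found for 30 of the 53 genes in brain and for 38 in lung. In brain, microglia-like cells led for 15 genes, ependymal-like cells for 5, qNSC/astrocyte-like, fibroblast-like and endothelial-like cells for 3 each and mural-like cells for 1. In lung, macrophage-like cells led for 11, smooth muscle-like cells for 9, endothelial-like cells for 7, matrix fibroblast-like cells for 5, T cell-like cells for 4 and myofibroblast-like and pericyte-like cells for 1 each. The leading class's interval lay above that of the next class for 21 of the 30 brain genes and 24 of the 38 lung genes, and 4 of the smooth muscle-like leads (Ccl21a, Cxcl9, Cxcl10 and Cxcl11) came from a few cells described below. Of 48 brain combinations of a gene with a class holding at least 10 of its UMIs, 26 were at least 4-fold higher than in the rest of the library, and over all genes 8.97% of such combinations were. In lung 22 of 74 were, and over all genes 5.31%. These shares are not like for like, because a gene enters a small class by being high there: 15 of the 26 brain combinations were microglia-like, where 23.8% of the combinations of all genes were called, and 9 of the 22 lung ones macrophage-like, where 23.6% were. With every cell thinned to 1000 UMIs the counts were 10 in each library. The plot of all detected genes by class shows this spread.

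**Figure D1:**
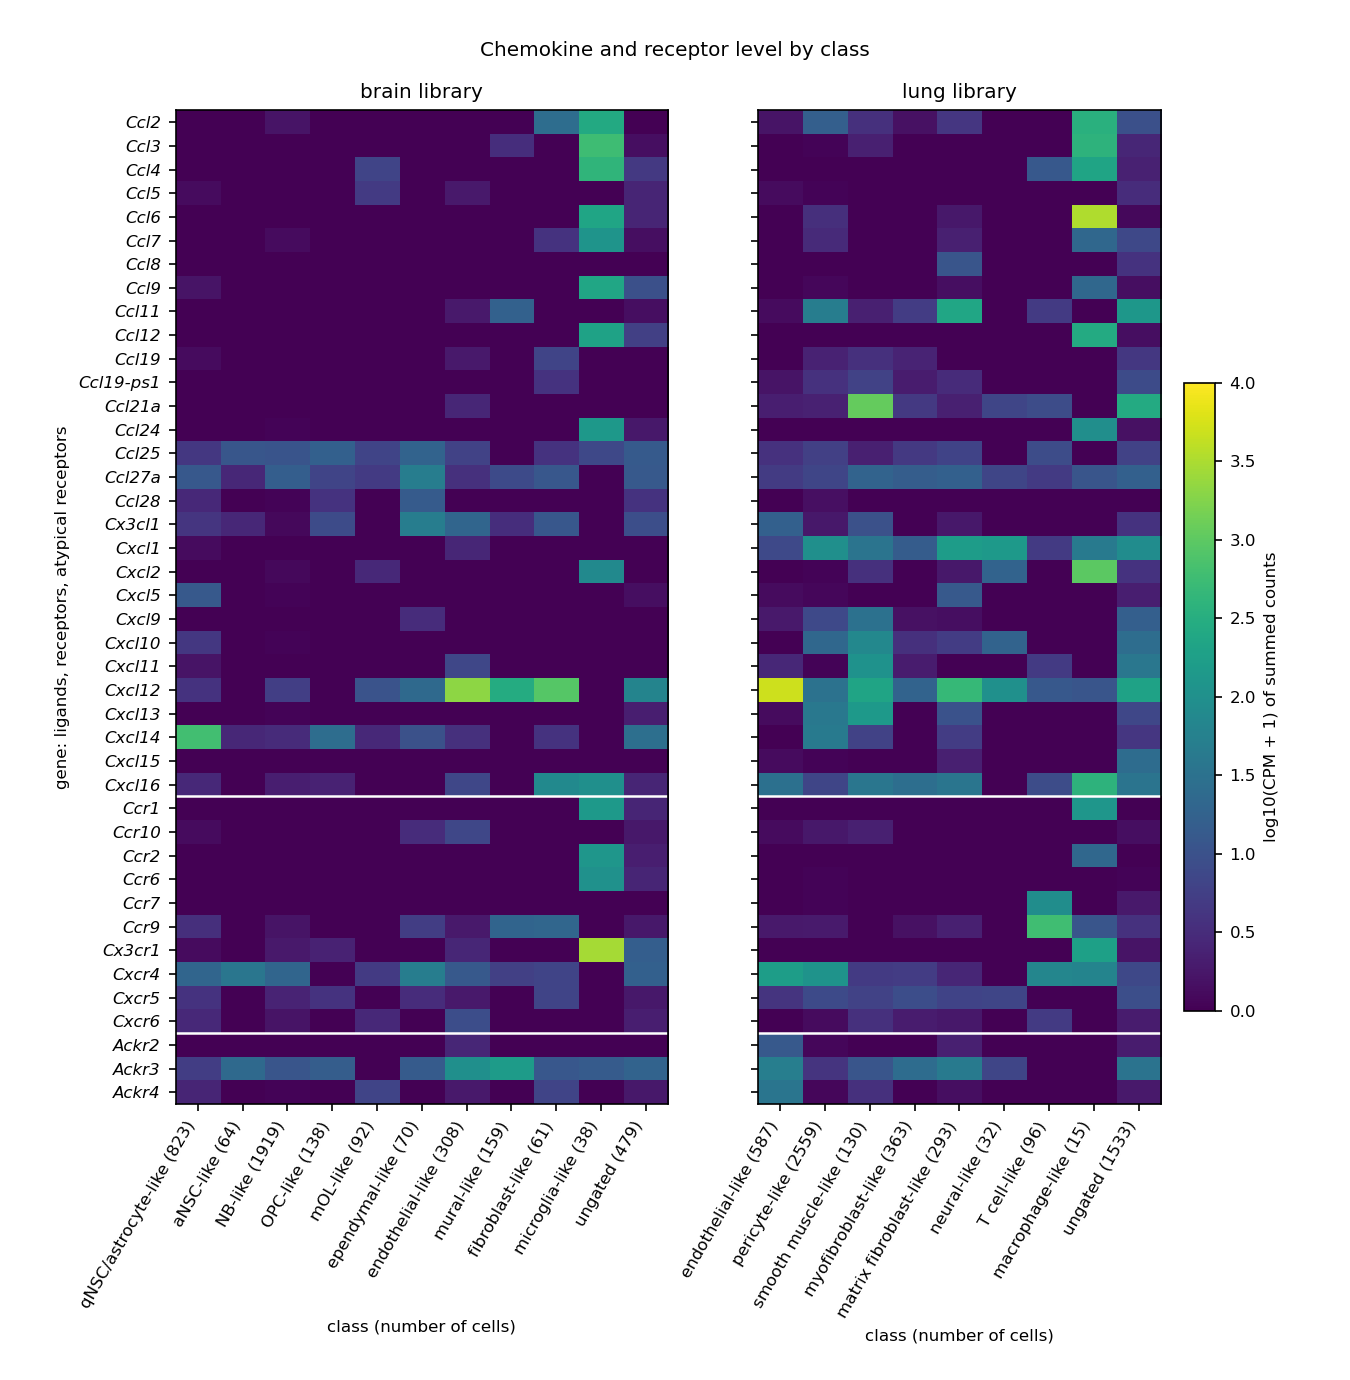
Level of the reported chemokine and receptor genes with at least 10 UMIs in a library (rows) in each marker-gated class (columns), as colour for log10(CPM + 1), 1 panel per library. The microglia-like column carries high levels of Cx3cr1, Ccl3 and Ccl4, whereas Cxcl12 is highest in endothelial-like cells in both panels.

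Cxcl12, the ligand that retains and positions stem cells, blood cells and neuroblasts, was carried mainly by endothelial-like cells. In brain these cells held 2058 CPM (1977 to 2142), with a UMI in 189 of 308 cells (61.4%). Fibroblast-like cells held 872 CPM (777 to 975, 82.0% of cells) and mural-like cells 289 CPM (240.1 to 345, 45.3%). The 3 intervals did not overlap, so the order endothelial-like, fibroblast-like, mural-like exceeded the counting error. NB-like cells were at 4.54 CPM with a UMI in 1.46% of cells and qNSC/astrocyte-like cells at 2.79 CPM with 1.09%, at median depths of 4464 and 3697 UMIs against 3771 in endothelial-like cells, and these low shares serve as a measure of background. Ependymal-like cells held 22.0 and mOL-like cells 9.48 CPM, and OPC-like, aNSC-like and microglia-like cells had 0 UMIs.

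In lung the endothelial-like cells held 4887 CPM of Cxcl12 (4812 to 4963), with a UMI in 534 of 587 cells (91.0%). Matrix fibroblast-like cells followed at 485 CPM (458 to 513, 76.5% of cells), then smooth muscle-like cells at 217 CPM (185 to 252) and neural-like cells at 99 CPM (57.7 to 159). Pericyte-like cells held 31.7 CPM (28.7 to 34.9) with a UMI in 7.74% of cells, myofibroblast-like cells 17.4 CPM and T cell-like cells 11.4 CPM with a UMI in 3.12% of cells at a median of 1754 UMIs. After every cell was thinned to 1000 UMIs the shares with Cxcl12 were 79.6% in lung and 47.3% in brain endothelial-like cells, 57.4% in brain fibroblast-like, 34.9% in matrix fibroblast-like, 22.9% in mural-like and 1.80% in pericyte-like cells.

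Between the libraries, Cxcl12 in endothelial-like cells was 2.37 times as high in lung as in brain (2.28 to 2.48). The mural counterparts went the other way, with 9.12 times more in brain mural-like than in lung pericyte-like cells (7.40 to 11.2), where the 8 endothelial markers summed to 991 and 172 CPM, beside 19650 CPM in brain and 10480 in lung endothelial-like cells, and brain fibroblast-like cells held 1.80 times the level of lung matrix fibroblast-like cells (1.58 to 2.04). Written as pericyte-like over mural-like, the Cxcl12 ratio was 0.11, and it moved to 0.0558 with clusters in place of gates, 0.0708 with thinned cells and 0.0724 without cells called doublets. In the 26 mural-like and 1355 pericyte-like cells without a UMI of those markers it was 0.0535 (0.0341 to 0.0876), from 379 and 20.3 CPM. Within the lung endothelial-like class, the 519 cells with a UMI of Gja4, Bmx or Gkn3, genes linked to arterial endothelium, held 5323 CPM against 713 in the 68 cells without (7.46-fold, 6.54 to 8.55), at median depths of 5508 and 4122 UMIs. In brain the same split gave 1932 CPM in 44 cells and 2083 CPM in 264 cells (0.927-fold). The lung over brain ratio was thus 2.76 (2.48 to 3.06) among the cells with these genes but 0.342 (0.297 to 0.393) among those without, so the direction turned there, and the classes differed in make-up. These splits were chosen after the values were seen.

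Cxcr4, the G protein-coupled receptor for CXCL12, was low in brain and spread over neural classes. Ependymal-like cells held 48.4 CPM (30.4 to 73.4, a UMI in 27.1% of cells), aNSC-like cells 36.5 CPM (22.3 to 56.5, 15.6%), NB-like cells 19.4 CPM (16.7 to 22.5, 7.92%), qNSC/astrocyte-like cells 18.9 CPM (14.5 to 24.3, 5.95%) and endothelial-like cells 11.97 CPM (6.55 to 20.1, 3.57%). Ependymal-like and aNSC-like levels could not be separated by their intervals, nor could those of NB-like and qNSC/astrocyte-like cells. Fibroblast-like, mural-like and mOL-like cells held 3.79 to 5.70 CPM, and OPC-like and microglia-like cells had 0 UMIs, where 3 counts would have allowed up to 4.26 and 19.5 CPM. The median depth of aNSC-like cells was 8990 UMIs, and at 1000 UMIs per cell the shares were 4.35% of ependymal-like, 6.25% of aNSC-like and 1.43% of NB-like cells. NB-like cells with a UMI of the division genes Top2a or Mki67 held 33.5 CPM against 12.4 in the others (2.7-fold, 1.997 to 3.67), at median depths of 7140 and 4119 UMIs. Among qNSC/astrocyte-like cells, the 67 with Thbs4 and without Slc7a10 held 42.03 CPM against 9.41 in the 388 with the reverse (4.47-fold, 1.87 to 10.3). Both splits were also chosen after the values were seen.

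Lung Cxcr4 lay in the vessel wall and in T cell-like cells. Endothelial-like cells held 169 CPM (155 to 183, a UMI in 278 of 587 cells, 47.4%), pericyte-like cells 112 CPM (106 to 118, 924 of 2559 cells, 36.1%) and T cell-like cells 68.6 CPM (40.7 to 108, 17.7%). The macrophage-like class held 61.8 CPM from 15 cells. Matrix fibroblast-like cells, the deepest class with a median of 8821 UMIs, stood at 1.66 CPM with a UMI in 1.37% of cells, and myofibroblast-like and smooth muscle-like cells at 4.11 and 3.85 CPM. Neural-like cells had 0 UMIs. Compared with brain, Cxcr4 was 14.1 times as high in lung endothelial-like cells (8.34 to 26.0) and 23.8 times as high in pericyte-like as in brain mural-like cells (6.57 to 196), the latter resting on 2 UMIs in the mural-like class. With thinned cells the endothelial-like ratio was 27.2. Among endothelial-like cells with a UMI of Gja4, Bmx or Gkn3 it was 4.32 (2.18 to 10.1), from 180 CPM in lung and 41.7 CPM in brain (8 UMIs), and among those without it was 10.3 (4 to 31.4), from 63.4 and 6.14 CPM (20 and 6 UMIs). Without mural-like and pericyte-like cells holding endothelial markers the second ratio was 3.43 (0.946 to 28.4), still on 2 mural-like UMIs.

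Ackr3, the atypical receptor that takes up CXCL12 and CXCL11, was ordered oppositely in the vessel walls of the libraries. In brain, mural-like cells held 155 CPM (119.9 to 197, a UMI in 25.8% of cells) and endothelial-like cells 96.6 CPM (79.6 to 116, 26.6%). In lung, endothelial-like cells held 49.7 CPM (42.5 to 57.9, 19.9%) and pericyte-like cells 2.96 CPM (2.10 to 4.07, 0.938%). The endothelial-like level was thus 0.624 times the mural-like level in brain (0.456 to 0.858) and 16.8 times the pericyte-like level in lung (11.7 to 24.5). Brain mural-like cells held 52.3 times the level of lung pericyte-like cells (34.6 to 80.1), a pericyte-like over mural-like ratio of 0.0191 that fell to 0.0121 with thinned cells. The difference between the libraries itself was not tested, since each was 1 library. The brain endothelial-like over mural-like ratio was 0.533 (0.287 to 1.10) against the 26 mural-like cells without endothelial markers and 0.672 (0.386 to 1.12) for the endothelial-like cells with Gja4, Bmx or Gkn3, with intervals that reach past 1. Matrix fibroblast-like cells held 41.4 CPM of Ackr3 (33.7 to 50.3), not separated from endothelial-like cells, and myofibroblast-like cells 24.6 CPM (18.2 to 32.7), while smooth muscle-like cells held 10.3, neural-like cells 5.82 and T cell-like and macrophage-like cells 0 CPM. Other brain classes held between 4.35 CPM in qNSC/astrocyte-like and 21.9 CPM in aNSC-like cells, NB-like cells 10.3 CPM (8.41 to 12.6), and mOL-like cells had 0 UMIs. Matrix fibroblast-like cells with Pi16 or Dpp4, markers of adventitial fibroblasts, held 68.6 CPM against 27.1 in the others (2.53-fold, 1.67 to 3.85, a split chosen after the values were seen).

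**Figure D2:**
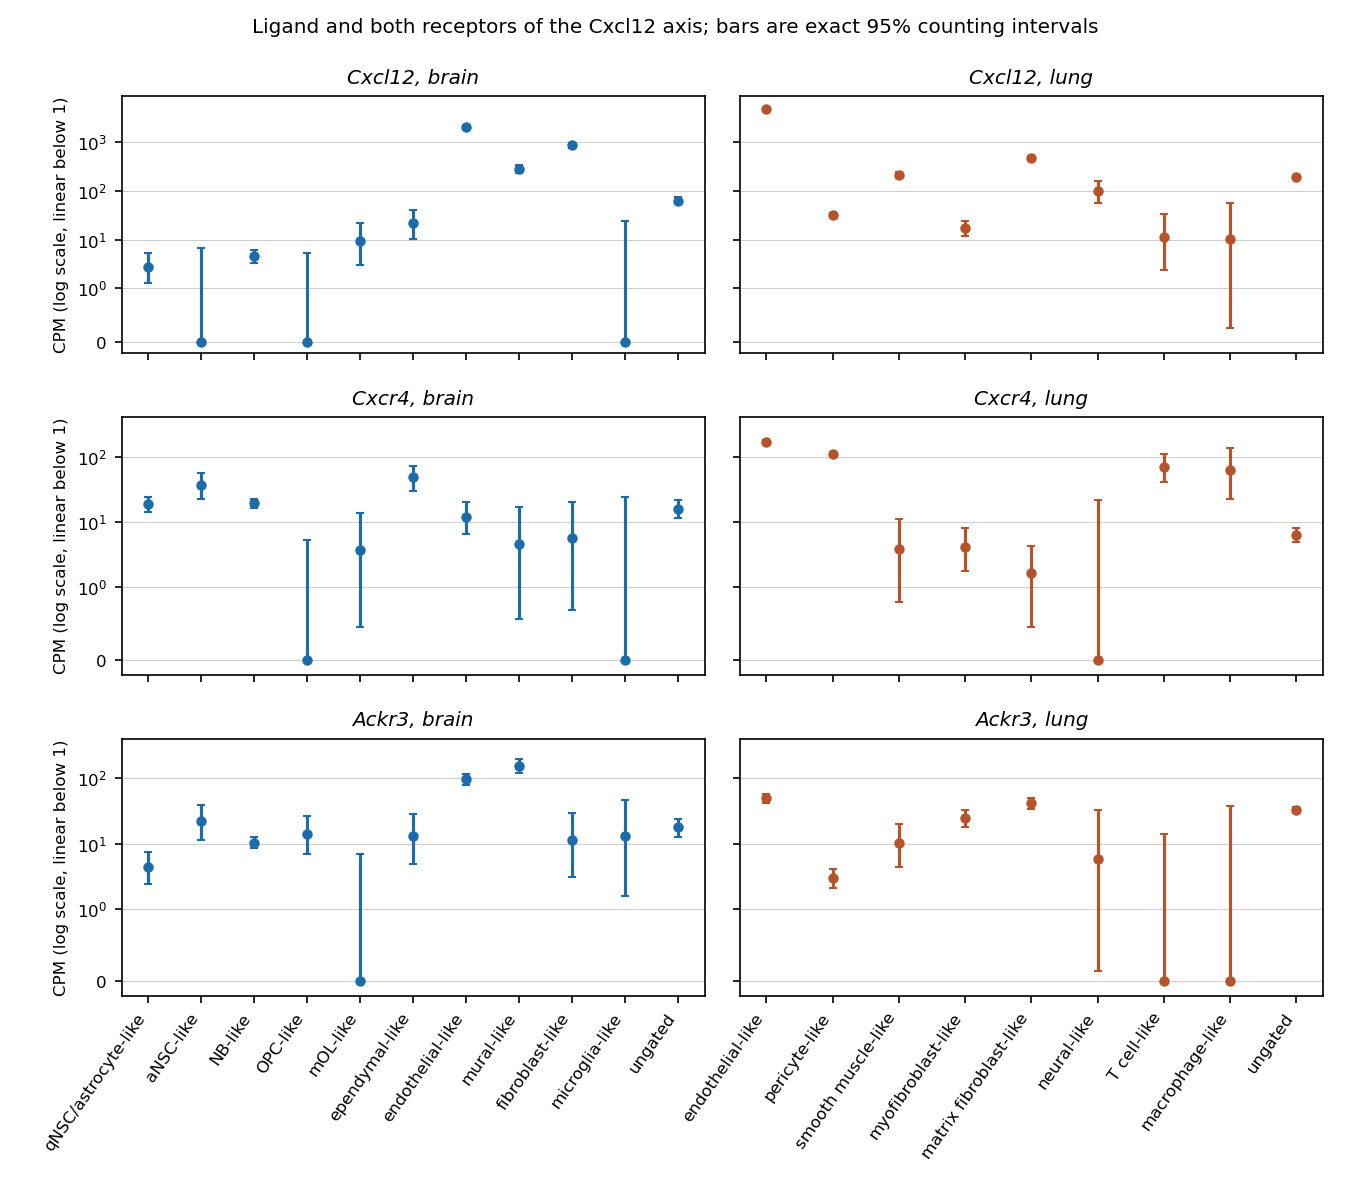
Levels of Cxcl12, Cxcr4 and Ackr3 in CPM on a log axis (linear below 1) for each class of the brain and lung libraries, with bars of the exact 95% counting interval of 1 library each. Cxcl12 is highest in endothelial-like cells of both libraries, Cxcr4 in lung endothelial-like and pericyte-like cells, and Ackr3 in brain mural-like cells.

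Ligand and receptor were seen together in some lung endothelial-like cells. At 1000 UMIs per cell, 465 of 584 lung endothelial-like cells held Cxcl12, 88 held Cxcr4 and 79 held both. Of 2496 pericyte-like cells, 250 held Cxcr4, 45 held Cxcl12 and 0 held both. Joint counts depend on the share of each gene, and Cxcl12 was frequent in the first class and rare in the second. They were not compared with the numbers expected from those shares. Ackr3 and Cxcr4 were seen together in 1 lung endothelial-like cell, with 23 and 88 positive cells. In 300 brain endothelial-like cells, 142 held Cxcl12, 26 held Ackr3 and 7 held both. No relation was tested across cells of 1 library, since a cell's type and depth are shared by its genes.

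Across the brain classes, the genes whose levels most resembled Cxcl12 were Cgnl1 (Pearson r = 0.979 over 10 classes on log2(CPM + 10)), Myl6 (0.976), Slc22a8 (0.973), Ecm1 (0.963) and Thbd (0.96). In lung they were Wfdc1 (0.98 over 8 classes), 1010001N08Rik (0.96), Mlkl (0.955), Dock9 (0.948) and Ppap2a (0.947). Classes of a library share depth and preparation, so the values are descriptions.

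The atypical receptors Ackr4 and Ackr2 also marked lung endothelial-like cells, and the membrane-bound ligand Cx3cl1 was highest there without being separated from the next class. Ackr4, which takes up CCL19, CCL21 and CCL25, stood at 35.05 CPM there (29.0 to 42, a UMI in 15.8% of cells) against 2.57 CPM in smooth muscle-like cells and under 1 CPM or 0 UMIs elsewhere among the gated classes, 71.2 times the rest of the library (40.8 to 134). Its exons overlap Acad11 on the opposite strand, which stood at 13.5 CPM in these cells and at 8.73 CPM or less in the other lung classes. Ackr2, which takes up inflammatory CC chemokines, had 41 of its 56 UMIs there, or 12.3 CPM (8.81 to 16.7). Cx3cl1 stood at 15.9 CPM (11.9 to 20.8, a UMI in 6.81% of cells), with 8.98 CPM in smooth muscle-like (3.61 to 18.5, overlapping) and 0.78 CPM in pericyte-like cells, and it stood at 29.3 CPM (12 UMIs) in a set of 46 cells with epithelial genes described below. Ackr4 stood at 17.1 CPM in that set (6.86 to 35.2, 7 UMIs in 6 cells), an interval that overlaps the endothelial-like one. Ackr4 was 41.0 times as high in lung as in brain endothelial-like cells (7.21 to 1632, with 1 brain UMI), Ackr2 7.18 times (1.87 to 61.3, with 2 brain UMIs) and Cxcl16 4.80 times (2.24 to 12.3), whereas Cx3cl1 differed by less than its counting error (0.844 times, 0.505 to 1.46) and Ackr3 was 0.515 times as high (0.403 to 0.659). For Ackr3 the ratio was 0.422 (0.263 to 0.714) among cells with Gja4, Bmx or Gkn3 and 1.10 (0.716 to 1.65) among those without. Of the 12 genes with at least 10 UMIs over both endothelial-like classes, 4 were at least 4-fold higher in lung, against 6.83% of all genes, and 0 in brain, against 5.03%. With cells thinned to 1000 UMIs, 1 gene was higher in lung. The median log2 ratio of lung over brain of the 12 genes was 1.53, against 0.02 over all genes. A gene could pass the UMI minimum through lung alone: Ackr2, Ackr4, Cxcl1 and Cxcr5 had 2, 1, 2 and 1 brain UMIs. The lung class held 3338523 UMIs against 1169323 in brain. The counts and the median are thus partly set by this filter. Red-cell genes summed to 12020 CPM in brain and 2320 CPM in lung endothelial-like cells, and their part in these ratios was not tested.

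**Figure D3:**
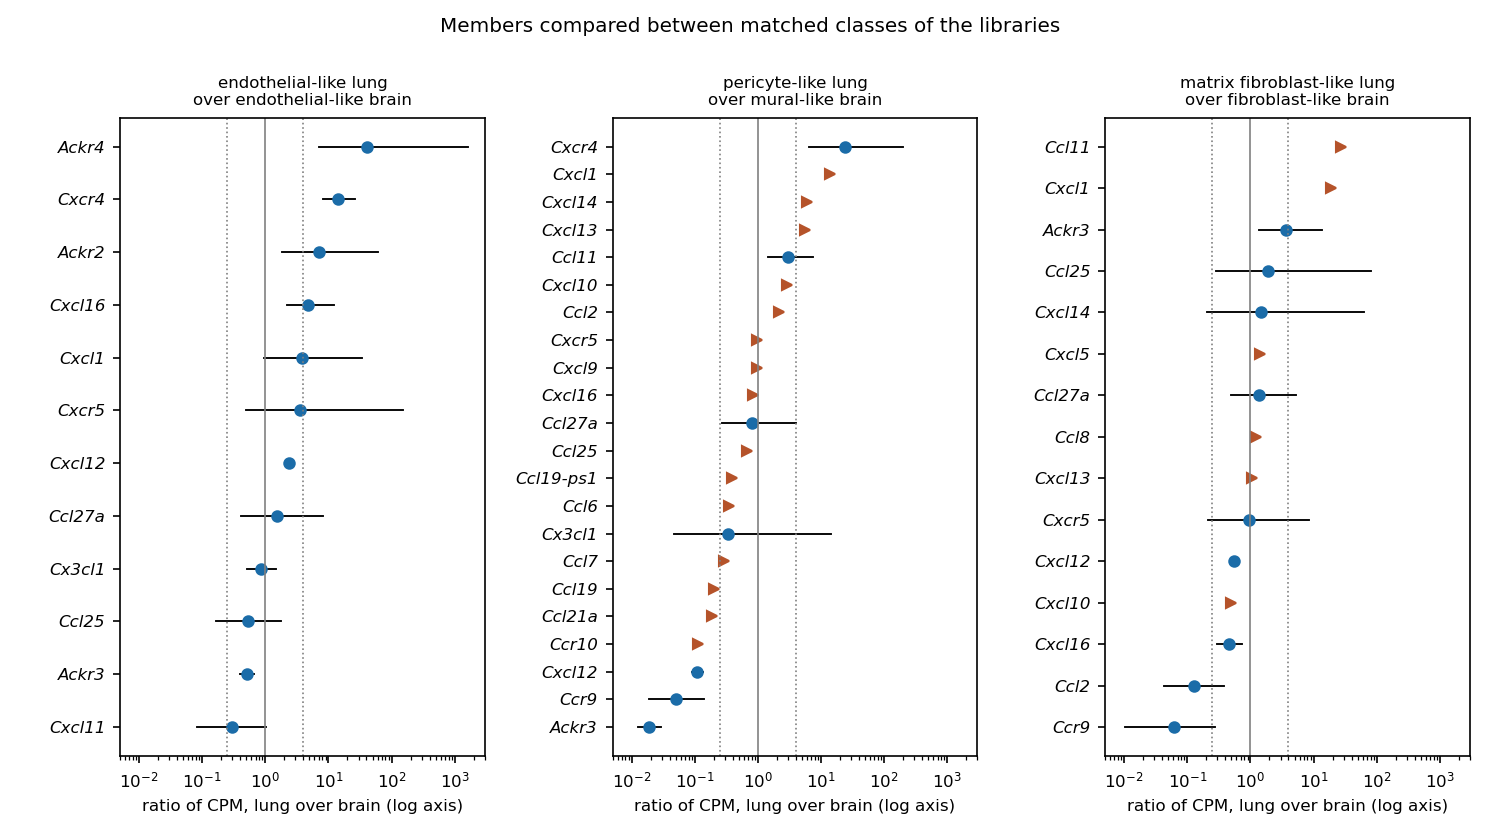
Ratio of CPM, lung over brain, on a log axis for chemokine and receptor genes with at least 10 UMIs over both of the matched classes, with exact 95% counting intervals and arrows where 1 side had 0 UMIs. Cxcr4 and Ackr4 lie to the lung side in endothelial-like cells, and Ackr3, Ccr9 and Cxcl12 to the brain side in the mural comparison.

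Pericyte-like and matrix fibroblast-like cells of the lung carried ligands with few or 0 UMIs in their brain counterparts. Cxcl1, a neutrophil attractant, stood at 160 CPM in matrix fibroblast-like cells (144 to 176, a UMI in 29.4% of cells), at 139.8 CPM in neural-like cells (89.5 to 208) and at 96.5 CPM in pericyte-like cells (91.2 to 102, 19.2%), against 6.59 CPM in endothelial-like cells (2.90%). The neural-like and matrix fibroblast-like intervals overlapped. Cxcl1 had 0 UMIs in brain mural-like and fibroblast-like cells, which made the lung counterparts higher by at least 13.7-fold and at least 18.7-fold, respectively, when 0 was replaced by 3 UMIs. Ccl11, the eosinophil attractant eotaxin, stood at 233 CPM in matrix fibroblast-like cells (214 to 253, 148 of 293 cells, 50.5%), at 48.7 CPM in pericyte-like cells (44.9 to 52.6, 6.57%) and at 0.299 CPM in endothelial-like cells (0.170%), and was at least 27.3-fold higher than in brain fibroblast-like cells. Brain mural-like cells held 16.4 CPM of it from 7 UMIs. Ungated lung cells stood at 128 CPM, and among them the 528 with a UMI of the fibroblast gene Dcn held 289 CPM of Ccl11 against 10.3 in the others (28.1-fold, 21.7 to 37.2), a split chosen after the values were seen.

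Cxcl13, the B cell attractant, stood at 145 CPM in smooth muscle-like cells (119 to 174, a UMI in 16.9% of cells), 39.2 CPM in pericyte-like cells (35.9 to 42.8, 12.4%), 9.10 CPM in matrix fibroblast-like cells and 0.299 CPM in endothelial-like cells. Cxcl14 was led by pericyte-like cells at 42.7 CPM (39.2 to 46.5, 13.2% of cells, 4.09% at 1000 UMIs), 17.3 times the rest of the lung (12.8 to 23.8), with 0 UMIs in endothelial-like cells. Both were higher in pericyte-like than in brain mural-like cells, Cxcl13 at least 5.57-fold and Cxcl14 at least 6.07-fold, with 0 brain UMIs. Cxcl16, a transmembrane ligand, was highest in the 15 macrophage-like cells (391 CPM), followed among the gated classes by smooth muscle-like (35.9 CPM, or 16.9 without the cells with epithelial genes described below), matrix fibroblast-like (35.2), endothelial-like (28.8) and myofibroblast-like cells (27.2), against 5.85 in pericyte-like and 0 in neural-like cells. The 46 cells with epithelial genes held 126.8 CPM (94.7 to 166, 52 UMIs in 28 cells). In brain it stood at 76.9 CPM in fibroblast-like cells from 27 UMIs and 97.3 CPM in microglia-like cells from 15. Its exons overlap Zmynd15 on the opposite strand, which stood at 82.3 CPM in lung macrophage-like cells and at 6.49 CPM or less in the other classes of both libraries.

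Of 22 genes compared between mural-like and pericyte-like cells, 4 were at least 4-fold higher in lung (Cxcr4, Cxcl1, Cxcl13 and Cxcl14), against 4.32% of all genes, and 3 in brain (Ackr3, Ccr9 and Cxcl12), against 6.9%. Of 15 genes compared between fibroblast-like and matrix fibroblast-like cells, 2 were higher in lung (Ccl11 and Cxcl1), against 4.69%, and 2 in brain, against 5.94%. The brain pair was Ccr9 (16.1-fold, 3.67 to 96.3) and the monocyte attractant Ccl2 (7.75-fold, 2.65 to 23.1). The median log2 ratio of lung over brain was 0 in the mural comparison, against 0 over all genes, and 0.28 in the fibroblast comparison, against -0.056. Ratios with 0 UMIs on 1 side entered these medians as bounds, or as 0 where the bound gave no direction. The mural-like class held 425802 UMIs against 12822619 in pericyte-like cells, so 0 UMIs in the mural-like class allowed up to 7.05 CPM. The count of Ccr9 in brain is uncertain: its exons overlap Slc6a20a on the opposite strand, which stood at 1167 CPM in mural-like and 786 CPM in fibroblast-like cells, and the strand setting of the counting was not given in the sources used here. On its own strand Ccr9 overlaps Gm17200, which stood at 232.5 CPM in mural-like and 119.6 CPM in fibroblast-like cells and had 1 UMI in lung pericyte-like cells. Ccr9 itself had 8 UMIs in mural-like cells (18.8 CPM, 20.1 times the pericyte-like level, 7.12 to 53.4) and 7 in fibroblast-like cells (19.9 CPM).

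The glial ligand of the brain library was Cxcl14. It stood at 604 CPM in qNSC/astrocyte-like cells (578 to 632, a UMI in 488 of 823 cells, 59.3%), at 25.5 CPM in OPC-like cells (15.1 to 40.4, 10.9%) and at 8.81 CPM in ependymal-like cells. NB-like cells held 2.11 CPM with a UMI in 0.938% of cells at a greater median depth of 4464 UMIs, and microglia-like and mural-like cells had 0 UMIs. At 1000 UMIs per cell 35.8% of qNSC/astrocyte-like cells held Cxcl14, and the level was 84.2 times that of the rest of the library (69.8 to 102). Cells with Slc7a10 and without Thbs4 held 830 CPM against 203 in the reverse set (4.10-fold, 3.12 to 5.50, the split named above). Cxcl5, a neutrophil attractant, had 39 of its 41 UMIs in this class (12.1 CPM), and the 10 highest cells held 87.8% of its UMIs. The Slc7a10 set held 28 of them in 7 cells and the smaller Thbs4 set 0, a level at least 1.44-fold higher against a floor of 3 counts, with set totals of 1700054 and 261739 UMIs. Cxcl10 had 11 UMIs here, of which 9 lay in 1 cell. Its exons overlap Art3 on the opposite strand, which stood at 904 CPM in brain mural-like cells, where Cxcl10 had 0 UMIs, and at 241 CPM in lung pericyte-like cells.

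Ependymal-like cells led for Ccl27a, a skin-homing chemokine, at 48.4 CPM (30.4 to 73.4, a UMI in 25.7% of cells but in 0% at 1000 UMIs), above NB-like cells at 14.6 CPM (12.3 to 17.2) and qNSC/astrocyte-like cells at 11.8 CPM. They also led for Cx3cl1, at 48.4 CPM from 22 UMIs against 18.8 CPM from 22 UMIs in endothelial-like cells. Ccl25, the ligand of CCR9, was spread between 0 CPM in mural-like and 17.6 CPM in ependymal-like cells (7.61 to 34.7), with 15.6 in OPC-like, 10.97 in aNSC-like and, for NB-like cells, 9.93, and Ccl28 had 6 UMIs in ependymal-like cells (13.2 CPM). Ccl25 and Ccl27a share exonic sequence on the opposite strand with Elavl1 and Il11ra1. In lung neither was marked by class: Ccl25 lay between 0 CPM in neural-like and macrophage-like cells and 7.63 CPM in T cell-like cells (2 UMIs), and Ccl27a between 3.81 CPM in T cell-like (1 UMI) and 17.96 CPM in smooth muscle-like cells.

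Microglia-like cells held most CC chemokines and receptors of the brain library although they were 38 cells. Most of their markers are also on the lung macrophage list, so the gate alone does not separate microglia from other macrophages. Cx3cr1 stood at 2848 CPM (2588 to 3128, a UMI in 32 of 38 cells, 84.2%, and 78.9% at 1000 UMIs), against at most 1.71 CPM in the other gated classes and a UMI in 0.417% of NB-like cells, at median depths of 3950 and 4464 UMIs. Ligands led here were Ccl3 (571 CPM, 88 UMIs), Ccl4 (415 CPM, 64 UMIs), Ccl2 (266 CPM, 41 UMIs), Ccl9 (234 CPM, 36 UMIs), Ccl6 (227 CPM, 35 UMIs), Ccl12 (201 CPM, 31 UMIs), Ccl24 (136 CPM, 21 UMIs), Ccl7 (117 CPM, 18 UMIs), Cxcl16 and Cxcl2 (77.9 CPM, 12 UMIs). These attract monocytes, neutrophils and T cells. A single cell held 25 of the 41 UMIs of Ccl2 and 23 of the 64 of Ccl4. Receptors led here were Ccr1 (143 CPM, 22 UMIs), Ccr2 (123 CPM, 19 UMIs) and Ccr6 (104 CPM, 16 UMIs). Ccr2, which marks blood monocytes, had 17 of its 22 UMIs in 1 cell. Each of these genes was at least 4-fold higher in the class than in the rest of the library.

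The lung macrophage-like class held 15 cells, so each value rests on few of them. Ccl6 stood at 3366 CPM (3011 to 3751, 11 of 15 cells) against 2.42 CPM in pericyte-like cells, and Cxcl2 at 978 CPM in 6 of 15 cells. Ccl3 (391 CPM, 38 UMIs), Ccl4 (216 CPM, 21 UMIs), Cxcl16 (391 CPM, 38 UMIs), Cx3cr1 (185 CPM, 18 UMIs), Ccr1 (124 CPM, 12 UMIs) and Ccl24 (92.6 CPM, 9 UMIs) were also highest there. In the class 31 of the 38 UMIs of Ccl3, 19 of the 21 of Ccl4, all 34 of Ccl2 and all 27 of Ccl12 lay in 1 cell each, whereas pericyte-like cells held Ccl2 at 15.4 CPM (13.4 to 17.8, 4.73% of cells). Neutrophil markers, 4 of 4 with a UMI, summed to 1029 CPM in the class and to 201 CPM in microglia-like cells (Csf3r alone), and their part in these levels was not tested. Ccl7 had 2 UMIs in macrophage-like and 26 in pericyte-like cells (20.6 and 2.03 CPM).

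T cell-like cells of the lung library were marked by Ccr9, the receptor for CCL25 that is known from developing thymocytes and gut-homing T cells. It stood at 602 CPM (512 to 704, a UMI in 61 of 96 cells, 63.5%, and 50.5% at 1000 UMIs) against 1 UMI in macrophage-like cells, 2.71 CPM in ungated cells, 1.24 CPM in matrix fibroblast-like cells and less than that in the remaining classes. In endothelial-like cells it stood at 0.899 CPM at a median of 5380 UMIs. Ccr7, the receptor for CCL19 and CCL21, had 24 UMIs in 8 cells (91.5 CPM). The recombination gene Rag1 had a UMI in 64 of the 96 cells and Cd8a in 74. Ccr9 and Rag1 were found together in 39 cells, Ccr9 and Ccr7 in 3, and Ccr7 and Rag1 in 0. The median depth of these cells was 1754 UMIs, so the absence of a joint UMI is weakly informative. Cxcr6 had 1 UMI in the class. The tissue these cells came from was not tested.

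The lung library held a small set of cells with large amounts of Ccl21a, the lymphoid chemokine. Of its 3715 UMIs, 3646 (98.1%) lay in 34 cells with at least 10 UMIs each, of which 27 were ungated and 7 smooth muscle-like. The 34 cells had a median of 102 UMIs and a highest value of 215. Keratin and class II genes stood out in them, with 1236 UMIs of Krt17, 492 of Krt5, 466 of Krt14, 320 of Epcam, 151 of Il7 and 2656 of Cd74, while Pecam1, Ptprc, Pdgfra and Sftpc had 0 UMIs. The transcription factor Foxn1, known from thymic epithelium, had 25 UMIs in 12 of the 34 cells and 3 in the rest of the library. Nes stood at 9.75 CPM in them and at 361 CPM elsewhere. The cells were chosen by the amount of Ccl21a, so these values are a description and were looked up after the level was seen. Ccl21a is one of several nearly identical genes, and its count is uncertain in that respect. As for the T cell-like cells, the tissue of origin of the 34 cells was not tested.

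Grouping cells by epithelial genes instead, without the chemokines, gave 46 lung cells with at least 3 of the 8 listed genes. In 35 of them Krt5 or Krt14 had a UMI, and 34 of these held Ccl21a, from 0 to 215 UMIs with a median of 101. In the same 35 cells Cxcl11 had 447 of its 465 UMIs (29 cells, median 6), Cxcl10 had 171 UMIs (20 cells) and Cxcl9 45 (12 cells). These are ligands of CXCR3 that interferon can induce. In the other set, the 34 cells chosen by Ccl21a, Isg15 stood at 1673 CPM against 31.3 elsewhere, and a part of interferon was not tested. The remaining 11 of the 46 cells lacked Krt5 and Krt14. In them Cxcl15, a lung epithelial neutrophil attractant, had 250 UMIs in 7 cells, with a median of 13 and a highest value of 74, and Ccl21a, Cxcl11 and Cxcl9 had 0. Sftpc, the surfactant gene, had a UMI in 8 of the 11. Without the 46 cells, the smooth muscle-like level of Ccl21a fell from 1125 CPM (877 UMIs, 7 of 130 cells) to 0, that of Cxcl11 from 106 CPM to 0, that of Cxcl9 from 29.5 CPM to 0, that of Cxcl10 from 71.9 to 1.41 CPM and that of Cxcl16 from 35.9 to 16.9 CPM. This grouping was added after the values were seen.

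Most of the Cxcl10 and Cxcl9 of the lung library lay outside the 46 cells, which held 29.0% of 593 and 16.9% of 266 UMIs. Pericyte-like cells held 262 UMIs of Cxcl10 in 26 of 2559 cells (20.4 CPM, 18.03 to 23.06), with up to 61 in 1 cell, and 86 of Cxcl9 in 9 cells (6.71 CPM, 5.37 to 8.28), of which 1 cell held 63. Ungated cells held 257 UMIs of Cxcl10 in 59 cells (25.8 CPM) and 152 of Cxcl9 in 18 cells (15.3 CPM). Of the latter, 133 lay in 12 cells with a UMI of the fibroblast gene Dcn, and 1 of these cells held 66. The level was 31.6 CPM against 3.31 CPM in ungated cells without Dcn (9.54-fold, 5.88 to 16.4, a split chosen after the values were seen). That interval does not cover the concentration in 1 cell. The 10 highest cells for each gene held 83.8% of the Cxcl9 UMIs and 44.5% of the Cxcl10 UMIs.

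**Figure D4:**
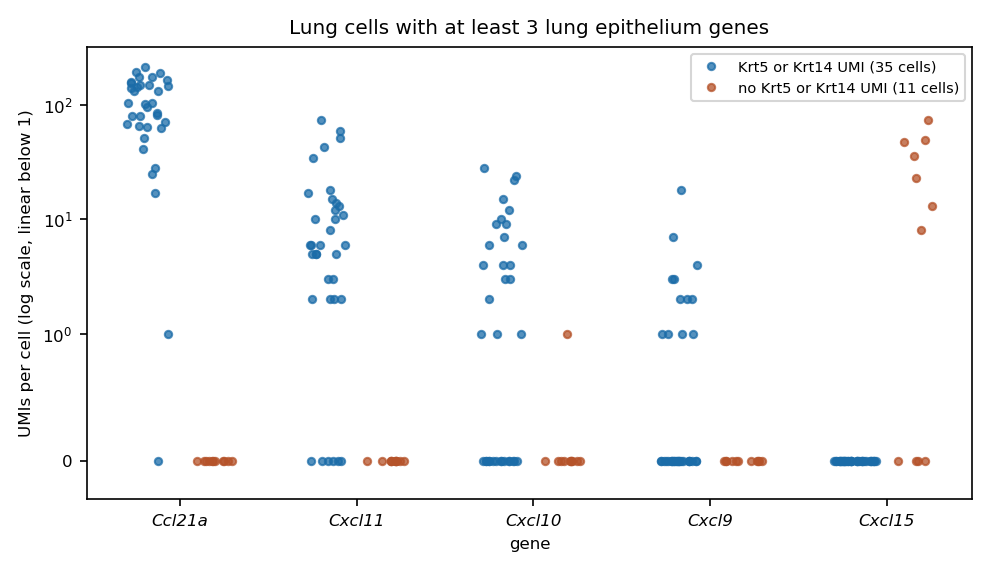
UMIs of Ccl21a, Cxcl11, Cxcl10, Cxcl9 and Cxcl15 (log axis, linear below 1) in each of the 46 lung cells with at least 3 epithelial genes, 1 point per cell, split by a UMI of Krt5 or Krt14 (35 cells) or neither (11 cells). Ccl21a and Cxcl11 lie in the first set and Cxcl15 in the second.

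Pairing senders with receivers, a pair was counted where ligand and receptor each reached 10 CPM with at least 3 UMIs in some class of the library. In brain 11 of 36 signalling pairs and 1 of 19 atypical pairs did so, and in lung 10 and 7. In brain Cxcl12 was highest in endothelial-like and fibroblast-like cells, Cxcr4 in ependymal-like and aNSC-like cells and Ackr3 in mural-like cells. Cx3cl1 was highest in ependymal-like and endothelial-like cells and Cx3cr1 in microglia-like cells. Both sides were highest in microglia-like cells for Ccl2, Ccl7 and Ccl12 with Ccr2 and for Ccl3, Ccl6 and Ccl9 with Ccr1. Ccl25 of ependymal-like cells and Ccr9 of fibroblast-like cells made a further pair, with the overlap of Ccr9 noted above.

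In lung, endothelial-like cells led both sides of Cxcl12 with Cxcr4, followed by matrix fibroblast-like cells for the ligand and pericyte-like cells for the receptor. Ccl21a of cells gated as smooth muscle-like, all of it in the cells with epithelial genes described above, paired with Ccr7 of T cell-like cells (neither set's tissue of origin was tested) and with Ackr4 of endothelial-like cells, and Cxcl11 of the same cells, a polymorphic pseudogene in the annotation, with Ackr3. Cx3cl1 of endothelial-like cells paired with Cx3cr1 of macrophage-like cells. Macrophage-like cells were highest on both sides for Ccl3 and Ccl6 with Ccr1. Cxcl1 and Cxcl5 of matrix fibroblast-like cells and Cxcl2 of macrophage-like cells paired with Cxcr2, which rested on 4 UMIs, and Ccl2, Ccl3, Ccl4 and Ccl11 paired with Ackr2 of endothelial-like cells. In lung Ccr9 reached the level in T cell-like cells but its ligand Ccl25 did not in any class, although it stood at 12.99 CPM from 4 UMIs in the 34 cells with many Ccl21a UMIs, a set that is no class. Ccl27a and Ccl28 with Ccr10, Cxcl13 with Cxcr5 and Cxcl16 with Cxcr6 were not counted in either library. RNA in 2 classes of a sorted library does not show contact or signalling between them.

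**Figure D5:**
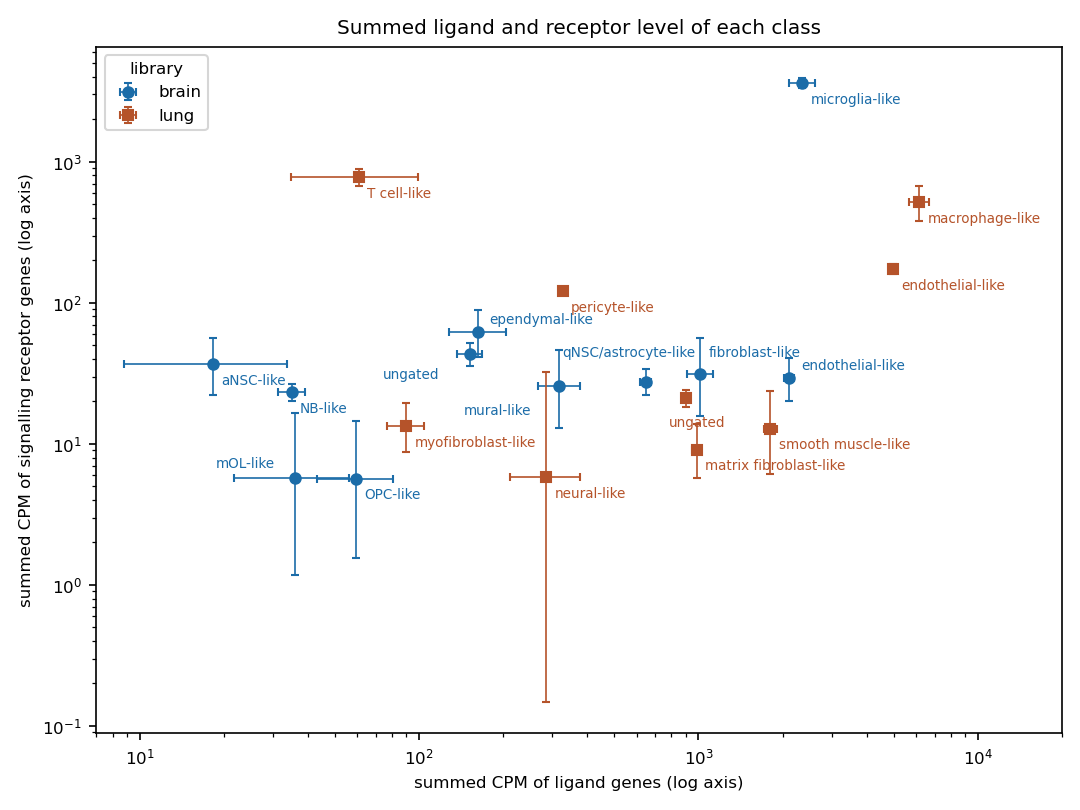
Summed CPM of all ligands (horizontal, log axis) against summed CPM of all receptors without the atypical ones (vertical, log axis), 1 point per class, brain and lung. Macrophage-like and lung endothelial-like cells have the highest ligand sums, smooth muscle-like and matrix fibroblast-like cells high ligand with low receptor sums, and T cell-like cells the reverse. Most of the smooth muscle-like ligand sum comes from a few cells with epithelial genes.

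Summed over the genes, several classes held mostly ligand RNA. Endothelial-like cells did so in both libraries, with 2107 CPM of ligands against 29.1 CPM of receptors in brain and 4952 against 173 CPM in lung. Cxcl12 made up 97.7% and 98.7% of those ligand sums. The highest ligand sum was that of the 15 macrophage-like cells, with 6176 CPM against 515 CPM of receptors. Smooth muscle-like cells held 1808 against 12.8 CPM, with 62.2% of the ligand sum from the Ccl21a of the cells with epithelial genes described above. The Cxcl11, Cxcl9 and nearly all of the Cxcl10 in that sum came from those cells as well. Matrix fibroblast-like cells held 984 against 9.10 CPM and brain fibroblast-like cells 1014 against 31.3 CPM. In qNSC/astrocyte-like cells ligands summed to 647 CPM, of which Cxcl14 was 93.4%, and receptors to 27.6 CPM. T cell-like cells held 778 CPM of receptors against 61.0 CPM of ligands, and microglia-like cells 3601 against 2349 CPM. The ordering was less one-sided in NB-like cells (34.97 CPM of ligands and 23.2 CPM of receptors) and in aNSC-like cells (18.3 and 36.6 CPM). In pericyte-like cells Cxcr4 made up 92.5% of 120.8 CPM of receptors, beside 327 CPM of ligands. The plot of ligand against receptor sums shows these positions.

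A further 26 genes of chemokine biology outside the naming rule (other chemokines and receptors, proteases, heparan sulfate enzymes and signal transducers) were read in the same way. In brain 14 of 25 listed genes were at least 4-fold higher in some class, in 19 of 124 combinations, and in lung 10 of 26, in 14 of 127 combinations, beside 8.97% and 5.31% of the combinations of all genes. Ccrl2, a chemokine-binding receptor without G protein signalling, stood at 350 CPM in lung pericyte-like cells against 29.9 in the rest (11.7-fold, 10.7 to 12.8) and at 171 CPM in brain mural-like cells (30.9-fold, 22.6 to 42). Dpp4, the protease that clips CXCL12 and other chemokines, stood at 77.8 CPM in brain and 72.8 CPM in lung endothelial-like cells, at 76.3 CPM in lung T cell-like cells and at 28.5 CPM in brain fibroblast-like cells, each at least 4-fold above the rest. The heparan sulfate carrier Sdc4 stood at 563 CPM in qNSC/astrocyte-like cells (18.5-fold, 16.7 to 20.5), and the arrestin Arrb1 at 81.7 CPM there and at 136 CPM in lung endothelial-like cells. Pf4, a chemokine of platelets and macrophages, stood at 707 CPM in microglia-like and 1420 CPM in macrophage-like cells. The desensitising gene Rgs1 was at 1266 CPM in macrophage-like cells.

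Several genes were detected at low counts. In brain, endothelial-like cells led for Cxcr6 (9 UMIs, 7.70 CPM) and Ccr10 (7 UMIs, 5.99 CPM), and fibroblast-like cells for Ackr4 and Cxcr5 (2 UMIs and 5.70 CPM each). In lung, matrix fibroblast-like cells led for Cxcl5 (29 UMIs, 12 CPM) and Ccl8 (25 UMIs, 10.3 CPM) and smooth muscle-like cells for Ccr10 (1 UMI) and Ccl19 (2 UMIs). Ccl8 stood at 21.94 CPM (10.03 to 41.65, 9 UMIs in 2 cells) in the 46 cells with epithelial genes, which are no gated class. Cxcr5, the receptor for CXCL13, had 0 UMIs in T cell-like and macrophage-like cells and lay between 2.99 CPM in endothelial-like and 7.70 CPM myofibroblast-like cells in the other classes. Its exons overlap Bcl9l on the opposite strand, which stood at 32.4 to 52.4 CPM in those classes. Ccl19 had 35 of 58 UMIs in ungated cells and the pseudogene copy Ccl19-ps1 stood at 7.13 CPM there, and reads of these near-identical genes may have been divided between them. The 46 cells with epithelial genes held 18 of the 58 UMIs of Ccl19 (43.9 CPM, 10 cells) and 41 of the 119 of Ccl19-ps1 (99.96 CPM, 19 cells). Ccl5 had 24 UMIs in 7 cells, of which 19 lay in 4 of those 46 cells and 13 in 1 cell.

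Between 1 and 9 UMIs were found in brain for Ackr2, Ccl11, Ccl17, Ccl19, Ccl19-ps1, Ccl21a, Ccl22, Ccl5, Ccr3, Ccr4, Cxcl1, Cxcl11, Cxcl13, Cxcl17, Cxcl9 and Cxcr2 (16 genes), and in lung for Ccl17, Ccl22, Ccl28, Ccl9, Cxcl17, Cxcl3, Ccr2, Ccr3, Ccr4, Ccr6, Ccr8, Cxcr1, Cxcr2 and Cxcr3. Ccl8, Cxcl15, Cxcl3, Ccr7, Ccr8, Cxcr1 and Cxcr3 had 0 UMIs in the kept brain cells. At this depth 3 UMIs would be the limit that a count of 0 allows. The receptor of Cxcl9, Cxcl10 and Cxcl11, Cxcr3, was thus near or at 0 in both libraries, and Ccr3, the receptor of Ccl11, likewise.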

How the data were processed

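The authors sorted Nestin-GFP positive cells from brain and lung and prepared 1 library each with the Chromium 3′ kit. Per the submitters' processing notes, reads were handled with bcl2fastq 2.19.1.403, UMI-tools 1.0.0, STAR 2.7.1a and featureCounts 1.6.4 on mm10, and the deposited values are raw UMI counts per gene and cell. The annotation version, the strand setting and the rule for calling cell barcodes were not given in the sources used here. No column of per-sample values was left unused (0 columns).

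Following the study's methods, the cell filter kept barcodes with more than 200 and fewer than 4000 genes and a mitochondrial share under 40%, which removed 489 of 4640 brain and 373 of 5981 lung barcodes. The barcodes in the files are as many as the cells of the study's own maps, so cells removed here were among those it plotted. Marker gates, not the authors' clusters, gave the classes, so names may differ from those of the study. Scrublet (scanpy 1.11.5) called 44 brain cells (1.06%) and 74 lung cells (1.32%) as doublets, and these were kept. Counts were summed per class and library and expressed as CPM. Intervals are exact 95% Poisson for levels, conditional binomial for ratios and Clopper-Pearson for shares (scipy 1.17.1), and a 0 in a fold was replaced by 3 counts. Depth was evened by thinning cells to 1000 UMIs, which left out 187 brain and 121 lung cells. Combinations of gene and class needed 10 UMIs and a 4-fold ratio, and the same count over all genes gave the background. Clusters for an alternative came from Seurat 5.3.0 (2000 variable genes without the chemokine genes, 20 components, resolution 0.8). Tested on simulated data for brain endothelial-like cells against the rest, all 200 genes changed 8-fold were recovered and 0 of 10140 unchanged genes were called. The simulation drew class totals with counting error only, and its 8-fold changes lay well past the 4-fold cut. It thus checks the computation and gives no error rate for the real calls, some of which rest on 1 cell.

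Coordinates came from the GENCODE annotation of GRCm38 and promoters from RefSeq. Genes with at least 100 UMIs in a library were described by class, those with 10 to 99 UMIs by their leading class and the others by name. Counts over the set include 1 gene that is not reported here. The genes, marker lists, pairs and pathway list were chosen with earlier results of these data known. Splits of a class by further genes and the grouping by epithelial genes were added after the values were seen. Alternatives changed the cell filter, subsets of the vessel classes, the gates, doublets, clusters, the fold, the UMI minimum and the depth.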

Additional observations from a re-analysis of the deposited data

Results flagged for a closer look

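In the barcodes removed by the cell filter, which entered no main comparison, 4 genes stood at least 4-fold above their level in the kept cells. Smaller excesses with an interval above the kept level, in lung, ran from 1.39 times for Cxcl12 to 3.69 times for Ccl5. In brain, Cxcl10 was 25.96 times the CPM of the kept cells, from 107 UMIs in 3 barcodes of which 1 barcode held 104. Cxcl13 was 21.11 times, from 29 UMIs in 4 barcodes with 25 in 1, and Cxcl11 was 10.68 times, from 33 UMIs in 1 barcode. In lung, Ackr2 was 4.977 times (3.27 to 7.52), from 44 UMIs spread over 27 barcodes with at most 4 in any.

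Ackr3 in endothelial-like cells was 0.6235 times the mural-like level in brain and 16.78 times the pericyte-like level in lung. The difference between these ratios was not tested, because each came from 1 library.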

How the results depend on the processing

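No paired analysis was possible because each group was 1 library, and for the same reason no replicate could be left out. Of 132 recomputed counts, 115 stayed within 1.5 times the reported count, 17 moved and 0 turned direction, and of 365 recomputed levels and ratios 312 moved by less than their counting interval, 51 by more and 2 turned direction. Thinning to 1000 UMIs per cell, which lowers the number of genes reaching 10 UMIs, gave 15 genes detected in brain and 25 in lung, 10 combinations of gene and class in each library, 7 pairs in brain and 11 in lung, 1 gene higher in lung endothelial-like cells, and 1 higher in lung and 0 higher in brain for the fibroblast classes. A fold of 2 in place of 4 gave 7 genes higher in lung and 1 in brain for endothelial-like cells and 7 higher in lung for pericyte-like cells. A minimum of 3 UMIs gave 2 genes higher in brain endothelial-like cells and 4 in brain fibroblast-like cells. Without an upper limit on genes per cell 1 gene was higher in brain endothelial-like cells. With clusters in place of gates this count was also 1 and 11 lung pairs were present, where no brain cluster was named aNSC-like and no lung cluster macrophage-like, so that no cluster stood for those classes in the pairs. The causes of the other changes at these last settings were not tested.

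Both turned in endothelial-like cells without Gja4, Bmx or Gkn3, a subset added after the values were seen, where the lung over brain ratio was 0.342 for Cxcl12 and 1.10 for Ackr3. Over the settings that kept whole classes, the lung over brain ratio in endothelial-like cells ranged from 2.19 to 2.46 for Cxcl12, from 13.9 to 27.2 for Cxcr4 and from 0.477 to 0.549 for Ackr3. The endothelial-like over mural-like ratio of Ackr3 ranged from 0.564 to 0.635 in brain and the endothelial-like over pericyte-like ratio from 12.2 to 22.2 in lung. The pericyte-like over mural-like ratio of Cxcl12 ranged from 0.0558 to 0.159. Small classes limited the depth, and 0 UMIs in the microglia-like class still allowed 19.5 CPM.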
